A study of Mus musculus with 9 samples.

Results

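Glutamine, glutamate, proline, ornithine, asparagine and aspartate are joined by a short chain of enzymes, and the mRNAs of 8 of these enzymes were followed in cultured mouse articular chondrocytes. The members were chosen by name, with earlier results of these data known: Asns, Aldh18a1, Pycr1, Prodh, Oat, Glul, Glud1 and Got1. Their counts and medians beside those of all genes therefore describe the set and are not independent support. Each was found once, by its Ensembl identifier, among the 55471 genes listed for every culture. All 8 passed the filter on low counts, which left 15362 genes for testing.

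Primary chondrocytes of the knee joint surfaces (femoral condyle and tibial plateau), taken from wild-type mice at postnatal day 5, formed 3 groups of 3 cultures. Control cells received the control adenovirus Ad-Control, Ad-OSCAR cells received an adenovirus that expresses osteoclast-associated receptor (OSCAR), a cell-surface receptor for collagen, and the third group received Ad-OSCAR and 5-aminosalicylic acid (5-ASA, mesalamine), an anti-inflammatory drug given in ulcerative colitis. The study's methods place all cultures on plates coated with COLpep, a collagen peptide that OSCAR binds, and give a 5-ASA dose of 10 µM. The labels give 3 days of culture, 400 MOI of virus for 2 h and a further 36 h, whereas the study's methods give 2 days, 800 MOI and 24 h. Overexpression by virus in a neonatal monolayer limits the cultures as a model of adult cartilage, Control cells received no 5-ASA, and no group received 5-ASA without Ad-OSCAR. Neither source says whether the cultures came from separate animals, so p-values measure the spread between these cultures only.

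Glutamate stands at the centre of the chain. Glutamine synthetase (Glul) joins ammonia to glutamate to make glutamine, and glutamate dehydrogenase (Glud1) links glutamate to the citric acid cycle. Pyrroline-5-carboxylate synthase (Aldh18a1) and ornithine aminotransferase (Oat) lead from glutamate and from ornithine towards pyrroline-5-carboxylate, which pyrroline-5-carboxylate reductase (Pycr1) turns into proline, while proline dehydrogenase (Prodh) begins proline breakdown. Aspartate aminotransferase (Got1) makes aspartate in the cytosol, and asparagine synthetase (Asns) turns aspartate into asparagine with the amide nitrogen of glutamine. Proline is abundant in collagen, which chondrocytes secrete in bulk. Asns, Aldh18a1 and Pycr1 are also known targets of ATF4, a transcription factor that acts when amino acids run short or the endoplasmic reticulum is stressed.

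Because ATF4 binds with C/EBP proteins to a composite element, the promoters of the 8 genes were read for the 8 bases TGATGNAA, a short form of that element, on both strands. The window ran from 250 bases before to 50 bases after the RefSeq start of each gene in GRCm38.p6. One match was found in each of Asns, 23 bases before the start, Pycr1, 103 bases before it, and Got1, where it lay on the opposite strand 102 bases before it. No match was found in Aldh18a1, Prodh, Oat, Glul or Glud1. The first start annotated in GENCODE lay upstream of the RefSeq start by 45 bases for Asns, 21 for Pycr1 and 1013 for Prodh. The Asns match thus lay inside the gene as annotated there, and the Prodh window did not reach that start. Of 27025 genes with such a window, 4.51% held a match, and 6 of the 17 genes with a window in a list of 19 ATF4 response genes did. A match of these letters is a description of the window and not a binding site. The stretch from 130 to 16 bases before the start is shown for the 3 genes with a match and for Aldh18a1, which moved with Asns and Pycr1 without one, and capitals mark the match (on Got1, its reverse complement). All 4 genes are on the minus strand, at chr6:7693225-7693339 (Asns), chr11:120643764-120643878 (Pycr1), chr19:43524621-43524735 (Got1) and chr19:40588479-40588593 (Aldh18a1), and each sequence is written in the direction of the gene.
Asns: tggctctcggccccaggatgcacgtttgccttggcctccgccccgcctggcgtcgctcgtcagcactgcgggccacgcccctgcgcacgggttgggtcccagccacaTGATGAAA
Pycr1: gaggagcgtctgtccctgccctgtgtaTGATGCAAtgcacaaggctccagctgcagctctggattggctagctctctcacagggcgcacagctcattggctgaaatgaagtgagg
Got1: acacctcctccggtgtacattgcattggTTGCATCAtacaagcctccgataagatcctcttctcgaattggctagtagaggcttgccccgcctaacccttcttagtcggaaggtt
Aldh18a1: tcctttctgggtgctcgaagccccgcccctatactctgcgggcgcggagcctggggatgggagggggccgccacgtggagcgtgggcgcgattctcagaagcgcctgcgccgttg

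The receptor set the groups apart as labelled. Oscar had between 3 and 4 counts in the Control cultures, 173445 to 187278 in Ad-OSCAR and 80766 to 94199 in Ad-OSCAR + 5-ASA, so Oscar mRNA was also 51.0% as high with 5-ASA as without it (edgeR quasi-likelihood test, adjusted p = 1.76e-08). Libraries held 19733448 to 28192740 counts. The labelled cell type was present: 15 chondrocyte markers summed to between 44500 and 50600 CPM (counts scaled to a common library size after TMM normalization) in Control, and the sum lay between 3140 and 3550 in Ad-OSCAR and between 4030 and 4500 with 5-ASA. All 15 fell with OSCAR. A list of 7 fibroblast and synovial markers moved the other way in sum, from 4570 to 4750 CPM in Control to between 7180 and 7690 in Ad-OSCAR and between 8790 and 9280 with 5-ASA, although 4 of the 6 that were tested fell with OSCAR. Markers of osteoblasts and osteoclasts summed to 74.9 to 82.0, 26.8 to 31.8 and 40.1 to 42.0 CPM in the same order. Macrophage and leukocyte markers summed to 3.78 to 5.71, 9.92 to 10.3 and 8.14 to 8.66 CPM, with Adgre1 at 0 in Control, and endothelial markers to at most 2.8 CPM. Those of muscle reached 1.6 CPM, of adipocytes 0.283 and of red cells 0.123, with Hbb-bs and Hbb-bt at 0 in every culture. The part of these marker changes, or of the lower Oscar level, in the results that follow was not tested.

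The first comparison asks what OSCAR overexpression did to the enzymes. Of the 8 mRNAs, 6 fell and 0 rose, against 32.2% of all tested genes that fell and 32.7% that rose (called at an adjusted p below 0.05, edgeR). The count that rose was also 0 at an unadjusted p below 0.05 and 0 by DESeq2. The median log2 fold change of the 8 was -1.01, against 0.022 over all genes tested. Among the 8, Pycr1, Aldh18a1 and Oat, which lead to proline, fell furthest, with Pycr1 at 15.0% of its Control level. Prodh and Got1 did not pass the test. In RNA from whole cultures, fewer cells of a type and less RNA per cell cannot be told apart.

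**Figure D1:**
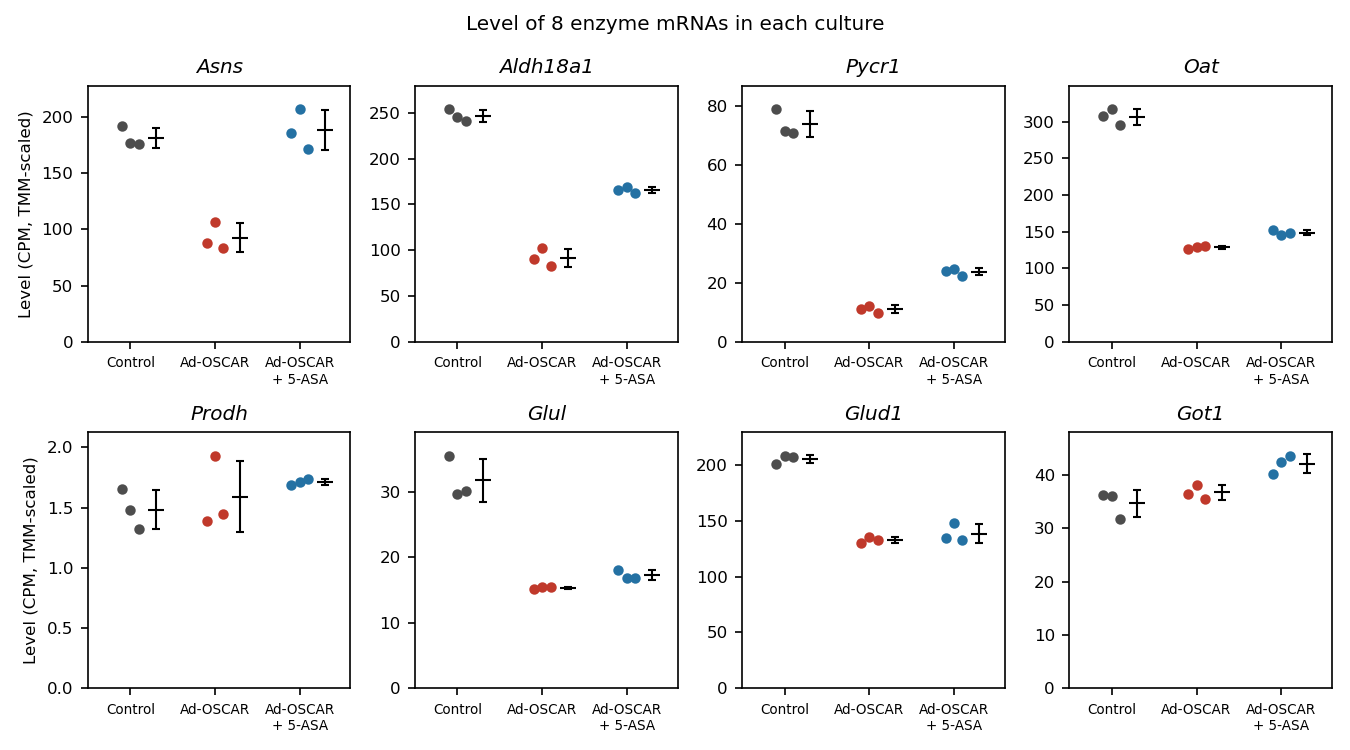
Level of each mRNA in CPM (TMM-scaled, axis from 0) in the 3 cultures of Control (grey), Ad-OSCAR (red) and Ad-OSCAR + 5-ASA (blue), with the mean and SD of each group in black. Asns, Aldh18a1, Pycr1, Oat, Glul and Glud1 have all 3 Ad-OSCAR cultures under all 3 Control cultures, and Asns is the 1 of these whose 5-ASA-treated cultures overlap Control. How many of all tested genes separate in this way was not counted.

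The second comparison asks what 5-ASA did in the presence of Ad-OSCAR. Of the 8, 5 rose (Asns, Aldh18a1, Pycr1, Oat and Got1) and 0 fell, against 10.4% of all tested genes that rose and 7.38% that fell. No member fell at an unadjusted p below 0.05 either, and DESeq2 called 0. The rise had 2 sizes. Asns, Aldh18a1 and Pycr1 rose between 1.81-fold and 2.14-fold, and Oat and Got1 rose 1.16-fold and 1.15-fold. Over all genes tested, 1.61% rose by more than 1.5-fold, which among the members held for the first 3. The median of the 8 was 0.20 on the log2 scale, against -0.004 over all genes.

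**Figure D2:**
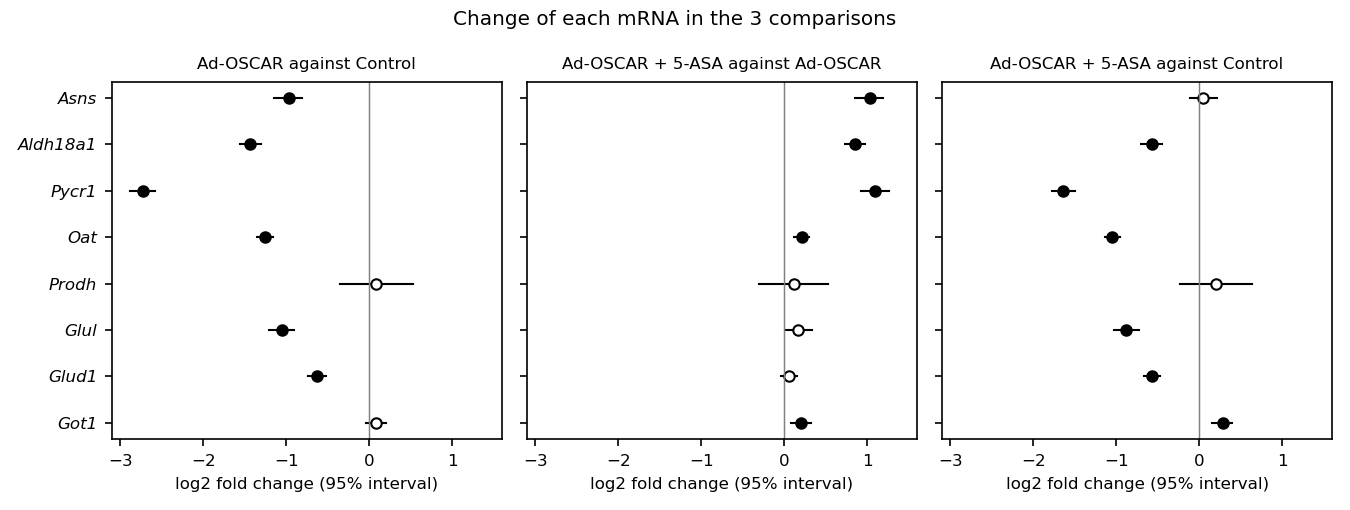
Log2 fold change of each mRNA (point) with its 95% interval (line) in the 3 comparisons, where filled points passed an adjusted p of 0.05 and open points did not. With OSCAR 6 points lie below 0, from -2.73 (Pycr1) to -0.63 (Glud1), with 5-ASA 3 points stand apart between 0.85 and 1.09, and against Control 5 points stay below 0.

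The third comparison sets the 5-ASA-treated cells against Control. Here 5 members were lower and 1 was higher, against 31.8% and 31.4% of all tested genes. Asns and Prodh did not pass. The 3 comparisons share cultures in pairs, so they are not separate evidence, and their values for each member are given side by side.

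Asns, which makes asparagine, had 192, 177 and 176 CPM in the Control cultures, 88.0, 107 and 83.3 in Ad-OSCAR and 186, 207 and 172 with 5-ASA. All Ad-OSCAR cultures lay below all others, and the Control and 5-ASA-treated cultures overlapped. The log2 fold change was -0.97 ± 0.08 (SE, n = 3 per group) with OSCAR (edgeR adjusted p = 3.49e-09) and 1.03 ± 0.08 with 5-ASA (edgeR adjusted p = 7.94e-08). Against Control, the treated cells differed by 0.05, with a 95% interval of -0.11 to 0.21 (edgeR adjusted p = 0.566). Asns is thus the 1 member of the 6 that fell whose treated level could not be separated from Control.

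Aldh18a1, which starts proline synthesis from glutamate, had 254, 245 and 241 CPM in Control, 90.2, 102 and 82.6 in Ad-OSCAR and 166, 169 and 162 with 5-ASA. The 3 groups did not overlap, and the treated cultures lay between the others. Its log2 fold change was -1.43 ± 0.06 with OSCAR (edgeR adjusted p = 3.72e-13) and 0.85 ± 0.06 with 5-ASA (edgeR adjusted p = 3.61e-08). Aldh18a1 was at 37.1% of Control in Ad-OSCAR and at 67.1% with 5-ASA (edgeR adjusted p against Control = 1.22e-07).

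Pycr1, which completes proline synthesis in mitochondria, had 79.0, 71.5 and 71.1 CPM in Control, 11.3, 12.3 and 9.86 in Ad-OSCAR and 24.1, 24.7 and 22.4 with 5-ASA. The groups again did not overlap. Its fall with OSCAR was 6.65-fold, a log2 fold change of -2.73 ± 0.07 (edgeR adjusted p = 3.71e-16), and it was the 1 member under -1.5, a limit passed by 5.39% of all genes tested. With 5-ASA it rose 2.14-fold (log2 1.09 ± 0.08, edgeR adjusted p = 3.48e-08), to 32.1% of Control. Pycr1 therefore had the largest rise with 5-ASA among the members and was still the furthest of them from Control, at a log2 difference of -1.64 ± 0.07 (edgeR adjusted p = 1.56e-13).

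Pycrl, the cytosolic reductase of the same step, had log2 fold changes of 0.17 with OSCAR (95% interval -0.07 to 0.40) and 0.05 with 5-ASA (95% interval -0.18 to 0.27), neither called. In TPM, a scale that corrects for transcript length so that levels of different genes can be compared, Pycr1 was higher than Pycrl in Control, at 75.5 ± 5.96 against 17.8 ± 2.27 (SD, n = 3). In Ad-OSCAR it was lower, at 11.6 ± 1.65 against 20.2 ± 0.919 TPM. With 5-ASA the means were 22.0 ± 1.18 and 19.7 ± 3.26 TPM.

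Oat, the ornithine entry to the same pathway, had 308, 317 and 295 CPM in Control, 127, 129 and 130 in Ad-OSCAR and 153, 146 and 148 with 5-ASA. The treated cultures all lay above the untreated Ad-OSCAR cultures, by a small margin. Oat fell by 1.26 ± 0.04 on the log2 scale with OSCAR (edgeR adjusted p = 2.6e-14) and rose by 0.21 ± 0.04 with 5-ASA (edgeR adjusted p = 0.00265). It was at 41.9% of Control before and 48.5% after 5-ASA. The 2 entries to proline synthesis thus both fell with OSCAR, and the 95% intervals of their rise with 5-ASA, 0.73 to 0.98 for Aldh18a1 and 0.12 to 0.30 for Oat, did not overlap.

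Prodh, which begins proline breakdown, was close to the limit of what the libraries could show. It had 25 to 47 counts per culture, or 1.65, 1.48 and 1.32 CPM in Control, 1.39, 1.93 and 1.45 in Ad-OSCAR and 1.69, 1.71 and 1.74 with 5-ASA. Its log2 fold change with OSCAR was 0.09, with a 95% interval of -0.35 to 0.53, so that a change within this interval was not detectable at this depth. With 5-ASA it was 0.12 (95% interval -0.30 to 0.53). Aldh4a1, the next enzyme of proline breakdown, with 714 to 1023 counts per culture, had a log2 fold change of -0.01 with OSCAR and fell by 0.23 with 5-ASA (edgeR adjusted p = 0.029).

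Glul, which makes glutamine, had 35.5, 29.6 and 30.1 CPM in Control, 15.2, 15.4 and 15.4 in Ad-OSCAR and 18.1, 16.9 and 16.8 with 5-ASA. It fell 2.07-fold with OSCAR (log2 -1.05 ± 0.07, edgeR adjusted p = 4.36e-10). The treated cultures lay above the untreated ones without overlap, but the difference of 0.17 ± 0.08 did not pass the test over all genes (edgeR adjusted p = 0.136).

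Glud1 had 201, 208 and 207 CPM in Control, 130, 135 and 133 in Ad-OSCAR and 134, 148 and 133 with 5-ASA. It showed the smallest fall of the 6, to 64.8% of Control (log2 -0.63 ± 0.05, edgeR adjusted p = 1.9e-09). With 5-ASA its groups overlapped and the log2 fold change was 0.06 (95% interval -0.04 to 0.16). Counts of Glud1 were whole before rounding in 2 of the 9 cultures, and within 0.26 of a whole number in the rest.

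Got1, the cytosolic aspartate aminotransferase, had 36.2, 36.0 and 31.8 CPM in Control, 36.5, 38.2 and 35.5 in Ad-OSCAR and 40.1, 42.5 and 43.6 with 5-ASA. The treated cultures were the highest and overlapped neither of the other groups. Its log2 fold change with OSCAR was 0.08 (95% interval -0.04 to 0.20), and it rose by 0.20 ± 0.06 with 5-ASA (edgeR adjusted p = 0.0216) and stood 0.28 ± 0.06 above Control (edgeR adjusted p = 0.000465). The rise with 5-ASA lost its call when any 1 of 4 cultures was left out, with log2 fold changes of 0.17 to 0.19: Ad-OSCAR culture 1 (edgeR adjusted p = 0.0817), Ad-OSCAR culture 3 (0.0865), Ad-OSCAR + 5-ASA culture 2 (0.0551) or culture 3 (0.0778). Its mitochondrial counterpart Got2 fell by 0.15 with OSCAR (edgeR adjusted p = 0.0113) and had a log2 fold change of -0.11 with 5-ASA (edgeR adjusted p = 0.148).

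Per length, the order of the 8 mRNAs shifted between groups. In Control the order was Oat at 259 TPM, Asns at 172, Glud1 at 142, Aldh18a1 at 137, Pycr1 at 75.5, Got1 at 33.8, Glul at 21.0 and Prodh at 1.4, where the ranges of Glud1 and Aldh18a1 overlapped and the other neighbours were separate. In Ad-OSCAR the levels were closer together, from Oat at 110 TPM through Glud1 at 92.5, Asns at 88.6, Aldh18a1 at 54.5, Got1 at 36.7, Pycr1 at 11.6 and Glul at 9.88 to Prodh at 1.81. Got1 had passed Pycr1, and the ranges of Glud1 and Asns and of Pycr1 and Glul overlapped. With 5-ASA Asns was the highest, at 173 TPM, above Oat at 120, followed by Aldh18a1 at 88.6 and Glud1 at 88.3 with overlapping ranges, and then Got1, Pycr1, Glul and Prodh. Summed over the 8, the level was 842 ± 25.5 TPM in Control, 406 ± 9.38 in Ad-OSCAR and 543 ± 20.6 with 5-ASA (SD, n = 3), with no overlap between groups.

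**Figure D3:**
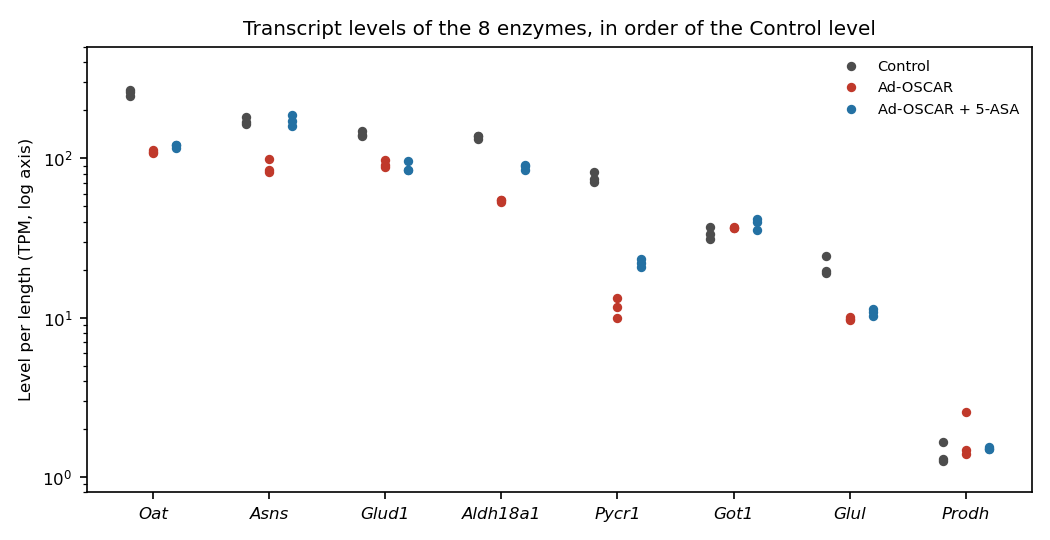
Level per length (TPM, log axis) of each mRNA in every culture of Control (grey), Ad-OSCAR (red) and Ad-OSCAR + 5-ASA (blue), in the order of the Control mean. The blue points of Asns sit beside the grey ones, those of Oat, Glud1 and Glul near the red ones and those of Aldh18a1 and Pycr1 between them, and for Got1 and Prodh the groups overlap.

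The 3 mRNAs that rose most with 5-ASA also varied within the Ad-OSCAR group. In Ad-OSCAR culture 2, Asns, Aldh18a1 and Pycr1 stood 0.21, 0.16 and 0.14 above their group mean in log2 CPM, and in culture 3 they stood at -0.14, -0.14 and -0.17. In culture 1 their deviations were -0.07, -0.02 and 0.03. The median deviation of the ATF4 response genes was 0.12 in culture 2 and -0.15 in culture 3. In those cultures Prodh stood at 0.28 and -0.11 and Got1 at 0.06 and -0.05, whereas Oat, Glul and Glud1 stayed between 0.00 and 0.02. Glul and Glud1 were less steady in the other groups. Glul stood at 0.17 in Control culture 1 and Glud1 at 0.10 in Ad-OSCAR + 5-ASA culture 2. These are single cultures, and the pattern is given without a test.

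The genes whose levels followed each member most closely were ranked by Pearson's r of log2 CPM over the 9 cultures, among 9326 genes of at least 10 CPM. Most of such an r comes from the 3 group means that all genes share. Asns was most like Slc7a1, a carrier of basic amino acids (r = 0.9885), Psph, the last enzyme of serine synthesis (0.9865), and Mthfd2, of the mitochondrial folate cycle (0.9836). Aldh18a1 was most like Ppp1r3b (0.9988), Shmt2, the mitochondrial serine hydroxymethyltransferase (0.9976), and Bgn, the matrix proteoglycan biglycan (0.9973). For Pycr1 the genes were Cxcl12 (0.9999), Cpxm2 (0.9987) and Sept11 (0.9984), and for Oat they were Lman1 (0.9989), Emp1 (0.9987) and Cthrc1 (0.9986). Glul was nearest Desi1, Lbr and Atp5a1, and Glud1 nearest Tfg, Erlin1 and Smc1a, with r from 0.9943 to 0.9975. Got1 and Prodh had looser neighbours, Rassf8, Mkrn2 and Sytl2 for Got1 (0.9372 to 0.9473) and Rit1, Traf7 and Scamp5 for Prodh (0.8617 to 0.9101).

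The wider lists of amino acid enzymes had medians below 0 with OSCAR and near 0 with 5-ASA. Their counts stand against 32.2% of all tested genes lower and 32.7% higher with OSCAR, and 7.38% lower and 10.4% higher with 5-ASA. Of 20 tested glutamine and glutamate enzymes (of 22 listed), 12 fell and 3 rose with OSCAR, with a median log2 fold change of -0.24, whereas 5-ASA raised 3 and lowered 0 (median 0.03, edgeR, 2 fell at an unadjusted p below 0.05, and DESeq2 called 0). Abat, the GABA transaminase, fell by 1.76 and rose by 0.65. Cad, which takes glutamine into pyrimidine synthesis, fell by 1.24, and Kyat3, a kynurenine and glutamine aminotransferase, fell by 0.83 with OSCAR. Gpt2, the mitochondrial alanine aminotransferase, rose by 0.48 and Ctps, the CTP synthase, by 0.32 with 5-ASA. Gfpt2, of hexosamine synthesis, was 0.66 lower in treated cells than in Control.

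Among proline, ornithine and arginine enzymes, Arg2 and Ass1 rose with OSCAR while Oat fell. Of 16 tested (of 23 listed), 7 fell and 3 rose with OSCAR (median -0.09), and 4 rose and 5 fell with 5-ASA (median 0.01). Arg2, the mitochondrial arginase that forms ornithine, rose by 3.64 with OSCAR, from 1.73 ± 0.222 to 21.8 ± 1.42 CPM, and fell by 0.40 with 5-ASA, to 16.6 ± 1.33 CPM. Ass1, which joins citrulline and aspartate on the way to arginine, rose by 2.29, from 17.4 ± 0.406 to 85.1 ± 1.86 CPM, and fell by 0.42 with 5-ASA, to 63.8 ± 3.89 CPM. Srm, the spermidine synthase, fell by 1.21 with OSCAR. L3hypdh, a hydroxyproline dehydratase, fell by 0.29 with 5-ASA.

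Of 9 tested asparagine and aspartate enzymes (of 12 listed), 6 fell and 3 rose with OSCAR (median -0.42). With 5-ASA, edgeR called 0 in either direction, with 1 higher and 1 lower at an unadjusted p below 0.05 and 0 by DESeq2. The asparaginases Aspg and Asrgl1 fell by 1.49 and 1.16 with OSCAR and were still 1.42 and 1.09 lower than Control with 5-ASA. Adssl1, an adenylosuccinate synthase, rose by 2.09 with OSCAR. Asnsd1, named for its asparagine synthetase domain, fell by 0.42 with OSCAR (edgeR adjusted p = 3.15e-06) and had a log2 fold change of -0.01 with 5-ASA. Of 5 tested mitochondrial carriers of these amino acids (of 7 listed), 3 fell with OSCAR, the aspartate and glutamate carriers Slc25a13 and Slc25a12 by 0.53 and 0.32 and the oxoglutarate carrier Slc25a11 by 0.26. None of the 5 was called with 5-ASA (edgeR, 0 at an unadjusted p below 0.05, and 0 by DESeq2).

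**Figure D4:**
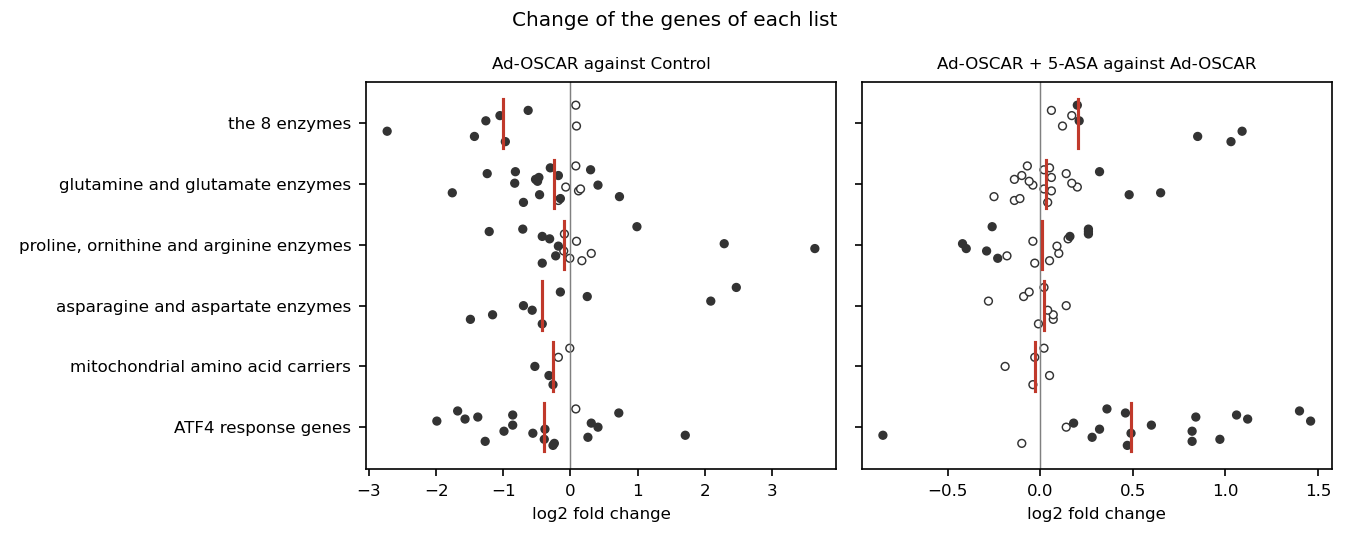
Log2 fold change of each tested gene (points, filled where an adjusted p of 0.05 was passed) in the 8 enzymes and in 5 lists, with OSCAR (left) and with 5-ASA (right), and the median of each list as a red line. On the right the lists of amino acid enzymes and carriers centre within 0.03 of 0, the 8 enzymes at 0.20 and the ATF4 response genes at 0.49, and the 2 panels have different axes.

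The ATF4 response genes, a list of 19 that holds none of the 8 enzymes, fell with OSCAR and rose with 5-ASA in most cases. Like the members, the list was chosen with earlier results of these data known. With OSCAR 13 fell and 5 rose (median -0.39), against 32.2% and 32.7% of all tested genes. With 5-ASA there were 16 higher and 1 lower (median 0.49), against 10.4% and 7.38%. Compared with Control, 9 were higher and 7 lower, against 31.4% and 31.8%. Atf4 itself had 385, 379 and 369 CPM in Control, 319, 334 and 294 in Ad-OSCAR and 445, 461 and 408 with 5-ASA, with no overlap between groups. It fell by 0.26 ± 0.05 with OSCAR (edgeR adjusted p = 0.00031) and rose by 0.47 ± 0.05 with 5-ASA (edgeR adjusted p = 5.23e-06), to 0.21 above Control. Of the serine synthesis genes, Psat1 fell by 1.99 and rose by 1.46, and Phgdh fell by 1.57 and rose by 1.12. Slc7a5, the large neutral amino acid carrier, fell by 1.68 and rose by 1.40. Atf3, a stress-induced factor, went the other way, rising by 1.71 with OSCAR, and was the 1 gene of the list that fell with 5-ASA (log2 fold change -0.85). Slc7a11, the cystine and glutamate exchanger, and Chac1, which breaks down glutathione, stood 1.18 and 0.59 above Control with 5-ASA. The ATF4 protein was not measured, and its part in these changes was not tested.

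Set beside the promoter windows read above, the letters and the changes with 5-ASA sorted the 8 genes alike only in part. Asns and Pycr1 hold the match and rose by 1.03 and 1.09 with 5-ASA. Got1 holds it and rose by 0.20. Without it in this window, Aldh18a1 rose by 0.85 and Oat by 0.21, and Glul, Glud1 and Prodh were not called. A part of the match in these changes was not tested.

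The annotated genes lie, in GRCm38, on chromosome 6 from 7675169 to 7693254 (Asns), chromosome 19 from 40550257 to 40588463 (Aldh18a1), chromosome 11 from 120635712 to 120643769 (Pycr1), chromosome 16 from 18060357 to 18090203 (Prodh), chromosome 7 from 132557478 to 132576398 (Oat), chromosome 1 from 153899944 to 153909723 (Glul), chromosome 14 from 34310727 to 34345265 (Glud1) and chromosome 19 from 43499752 to 43524605 (Got1). Glul and Glud1 are on the plus strand and the others on the minus strand. Aldh18a1 overlaps the processed pseudogene Gm15801, Oat lies within the span of a longer gene on its own strand, and Prodh and Glul overlap protein-coding genes on the opposite strand. Whether the counting used strand is not given in the sources used here, so reads of such partners cannot be told apart for certain. Counts were whole in all 9 cultures for 6 of the 8 members, apart from Glud1 and from Glul, which had 1 culture with a count that was not whole.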

How the data were processed

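RNA from 9 chondrocyte cultures was sequenced as paired reads. Per the labels and the study's methods, the authors trimmed reads with BBDuk, aligned them with STAR 2.7.1a to GRCm38 and made expected counts and TPM per gene with RSEM 1.3.1 (the study's reporting summary names another RSEM version). The deposited expected counts are estimated, not scaled to a common total, and were rounded here. The deposited TPM were used for levels across genes, without a test. Symbols and positions are from GENCODE M21 (55144 of 55471 genes matched), and promoter sequences from RefSeq.

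Counts were tested in R 4.3.3 with edgeR 4.0.16: TMM, filterByExpr by group, a quasi-likelihood F test with group as the only factor over all 9 cultures, and Benjamini-Hochberg adjustment over 15362 genes. The biological coefficient of variation was 5.11%. Alternatives were DESeq2 1.42.0, RLE, no filter, a minimum of 10 counts per culture, a fit of the compared groups alone, a replicate block, and each culture left out. Log2 CPM used a prior count of 2. Scripts were tested on simulated data. Genes were named by rule: all members, genes of the same reaction (apart from some that are not reported here), Atf4, per list and comparison the 3 largest called changes of at least 1 CPM, and the 3 genes most like each member. The members and lists were chosen with earlier results of these data known. One list symbol, Ddit3, belongs to 2 identifiers, and the one with more counts was used. The authors' test columns were not used.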

Additional observations from a re-analysis of the deposited data

How the results depend on the processing

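The count of members called and that of the 5 lists pooled, in each direction of the 3 comparisons, stayed within 1.5 times its value under all 15 alternatives. Counts of single lists were set beside DESeq2 alone, which called 2 glutamine and glutamate enzymes higher than Control in treated cells against 4 by edgeR, and 1 mitochondrial carrier higher with OSCAR against 0. No pairing by culture number was seen, as same-numbered cultures had a mean correlation of deviations of -0.021 (lowest -0.0724, highest 0.0402, 9 pairs). A weak pairing, or one limited to some genes, would not show in this value. With a replicate block, 6 members were called lower with OSCAR and 5 higher with 5-ASA, and the list genes called with 5-ASA were 22 higher and 5 lower, against 23 and 6 without it. With each culture left out in turn, between 4 and 5 members were called higher with 5-ASA. Of single members, Got1 lost its call with 5-ASA in 4 of 15 alternatives (given in the report). The sign of 2 values that passed no test turned: Prodh with OSCAR, from -0.06 without Ad-OSCAR replicate 2 (edgeR adjusted p = 0.829) to 0.18 over the cultures left out, and Asns in treated cells against Control, from -0.02 without Ad-OSCAR + 5-ASA replicate 2 (edgeR adjusted p = 0.85) to 0.11. The cause was not tested. Prodh, with 25 to 47 counts per culture, is the member that depth limits. Intervals cover the spread between 3 cultures a group.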
